A study of Homo sapiens with 6 samples.

Results

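The NRF2 pathway was read in 10 genes of a KYSE450 RNA-seq table: the transcription factor NFE2L2 (NRF2), its inhibitor KEAP1 and 8 antioxidant or detoxification targets. They were taken by exact gene name, and each of the 10 names matched 1 of the 27887 rows. KYSE450 is an established human esophageal squamous cell carcinoma line. One group of 3 libraries came from wild-type cells given a mock virus, and the other group of 3 from cells in which a virus carrying an shHMGB2 hairpin had knocked HMGB2 down. Every library is from the same line and from virus-exposed cells. The sources used here give neither the hairpin sequence, nor what the mock virus carried, nor the time after infection. The labels call the later libraries of each group repeat samples without saying whether cultures were separate, so a p-value reflects library-to-library spread, which can be purely technical.

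NRF2 is the master activator of the antioxidant response. In unstressed cells KEAP1 holds NRF2 for ubiquitination by a CUL3 ligase and NRF2 is degraded; oxidants and electrophiles modify KEAP1, and NRF2 then enters the nucleus. There it pairs with a small MAF protein (MAFF, MAFG or MAFK) on antioxidant response elements and switches on genes of glutathione and thioredoxin chemistry, quinone reduction, drug efflux and haem breakdown. Because NRF2 is controlled mainly through protein stability, its mRNA is a poor guide to its activity, and its targets are the usual readout. The pathway is often activated by mutation in squamous cancers of the esophagus.

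Stretches holding the core letters of the antioxidant response element are shown for the genes where they were found near a start site. RefSeq promoter windows (GRCh38.p14, 250 bases before to 50 after an annotated start) were found for 8 of the 10 genes, in 11 windows. They were searched on both strands for the core element TGACNNNGC, which reads GCNNNGTCA on the other strand. It was present in 4 of the 11 windows, against 13.3% of all 35116 windows of the same length. Both TXNRD1 windows, the GCLM window and a KEAP1 window held it. The windows of NFE2L2, NQO1, GCLC, SRXN1 and AKR1C1 held 0 matches. No match overlapped the AP-1 letters TGANTCA. Capitals mark the match, with 30 bases on each side, on the strand of the gene.
KEAP1, chr19:10502764-10502855, minus strand: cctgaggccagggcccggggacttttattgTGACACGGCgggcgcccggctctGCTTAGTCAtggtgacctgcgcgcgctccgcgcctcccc
GCLM, chr1:93909426-93909494, minus strand: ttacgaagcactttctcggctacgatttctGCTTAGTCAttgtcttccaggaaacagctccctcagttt
TXNRD1, upstream start, chr12:104215650-104215809, plus strand: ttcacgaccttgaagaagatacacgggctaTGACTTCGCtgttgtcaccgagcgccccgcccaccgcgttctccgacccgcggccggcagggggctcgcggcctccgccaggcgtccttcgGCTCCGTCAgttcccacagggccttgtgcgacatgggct
TXNRD1, downstream start, chr12:104286900-104286968, plus strand: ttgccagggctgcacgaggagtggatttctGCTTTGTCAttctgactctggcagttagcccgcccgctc
KEAP1 has 2 windows, and its matches began 31 and 54 bases before the downstream start. The window at the upstream KEAP1 start (chr19:10503307-10503606) held 0 matches. The match began 34 bases before the start in GCLM, and matches began 8 and 99 before the upstream TXNRD1 start and 102 before the downstream one. KEAP1 and GCLM hold the same 9 letters, GCTTAGTCA. A match is a description of the letters and not a measured binding site, and elements farther from the start were not searched. Among all tested genes with a window, 6.64% of the 1868 with a match differed between the groups in limma, and 7.06% of the 7790 without one.

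Values are FPKM, that is read fragments scaled by transcript length and library size, and summed FPKM ranged from 740684 to 829437 per library. HMGB2, the target of the hairpin, averaged 112 ± 3.60 FPKM over the mock libraries and 24.8 ± 2.84 FPKM after knockdown (n = 3 each, SD), a log2 fold change of -2.14 (limma adjusted p = 0.000113). Of 8 squamous markers 7 averaged at least 1 FPKM, and their summed FPKM did not overlap between the groups, at 5897 to 6002 in mock and 5149 to 5853 in shHMGB2. KRT5, a basal keratin, lay between 3305 and 3884 FPKM and did not pass. The keratins KRT14 (135 to 92.4 FPKM, limma adjusted p = 0.00532) and KRT6A (2068 to 1418, 0.00557) fell, and SOX2, a squamous lineage factor, rose (57.4 to 77.3, 0.0307). The defining leukocyte gene PTPRC and the endothelial gene PECAM1 were at most 0.03 and 0.01 FPKM in any library. Summed over the 2 of 4 leukocyte markers found by name, which are PTPRC and the lysosomal protein CD68, the range was 6.87 to 7.62 FPKM in mock and 4.25 to 4.65 in shHMGB2. Summed fibroblast markers (5 of 5 in the table) ran from 2.91 to 3.67 in mock and from 3.96 to 4.38 in shHMGB2, endothelial markers (4 of 4) from 1.87 to 2.58 and from 2.39 to 2.77, and the 2 neurofilament markers of virus packaging cells from 10.8 to 12.4 and from 14.6 to 16.1 FPKM. The fibroblast, endothelial and neurofilament sums each held only 1 gene averaging at least 1 FPKM: LUM (3.03), ERG (1.86) and NEFL (13.4). Of the other fibroblast markers, COL1A1 averaged 0.70 FPKM in mock and 0.64 in shHMGB2, and COL1A2, DCN and PDGFRB were at most 0.05. NEFM averaged 0.177 and 0.167 FPKM. Whether any such cells were present, and their part in the results, was not tested.

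All NRF2 targets except HMOX1 and ABCC3 stood at 28.35 FPKM or more in every library of both groups. No other cell line is included, so these levels have no outside reference. Averaged over the 6 libraries, TXNRD1 (185 FPKM), NQO1 (173) and NFE2L2 itself (123.5) led. SRXN1 (55.7), GCLC (44.7), AKR1C1 (41.1), KEAP1 (34.4) and GCLM (31.1) followed, and HMOX1 (2.84) and ABCC3 (1.53) were more than 10 times lower. In that order the ranges over 6 libraries overlapped between TXNRD1 and NQO1 and between each neighbouring pair from SRXN1 to GCLM. They did not overlap between NQO1 and NFE2L2, NFE2L2 and SRXN1, GCLM and HMOX1, or HMOX1 and ABCC3. FPKM is scaled by length, so these levels can be set side by side, though only roughly. That of AKR1C1 is uncertain, since its reads could be split with closely related copies.

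**Figure D1:**
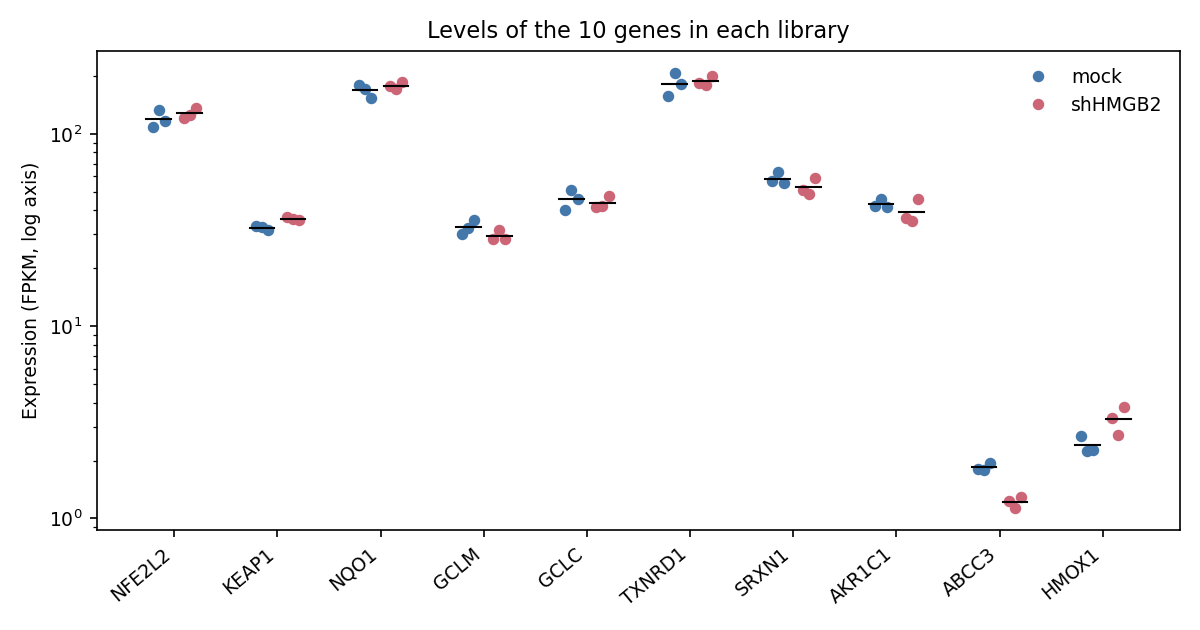
FPKM (log axis) of the 10 genes in each library; points are libraries, blue for mock and red for shHMGB2 (3 each), and black bars are group means. The groups separate only for KEAP1, ABCC3 and HMOX1, which sit at 31.7 to 37.0, 1.13 to 1.94 and 2.24 to 3.79 FPKM.

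None of the 10 genes passed the test after HMGB2 knockdown. The test was limma on log2(FPKM + 1) over 13409 genes, with an adjusted p of at most 0.05, and 6.75% of all genes tested passed it. At an unadjusted p under 0.05 there were 3 of the 10, KEAP1, ABCC3 and HMOX1, against 27.9% of all genes. The same 3 were the genes whose groups did not overlap: 2 were higher in shHMGB2 (21.6% of all genes tested) and 1 was lower (14.0%). By the authors' deposited table, 1 of the 10, ABCC3, had an adjusted p of at most 0.05, against 15.4% of the 13585 rows with one. The median log2 fold change of the 10 was -0.004, with 5 above 0, and that of all genes was 0.04, with 57.0% above 0. The 10 genes therefore stood near the background on each of these counts.

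NFE2L2 encodes NRF2 and lies on chromosome 2 at 177230303 to 177264727 (GRCh38). Its level was 108.9, 132.5 and 117.0 FPKM in mock replicates 1 to 3 and 120.4, 126.0 and 136.4 in shHMGB2. The groups overlapped, and the means were 119 ± 12 and 128 ± 8.13 FPKM (SD, n = 3 each). The log2 fold change was 0.10 (95% interval -0.10 to 0.30, limma adjusted p = 0.486).

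KEAP1 encodes the sensor that marks NRF2 for degradation (chromosome 19, 10486125 to 10503356). It had 33.1, 32.7 and 31.7 FPKM in mock and 37.0, 35.9 and 35.8 FPKM in shHMGB2. Every shHMGB2 library lay above every mock library, by a small margin: the mean was 11.4% higher. The log2 fold change of 0.15 (95% interval 0.03 to 0.27) did not pass (limma adjusted p = 0.114). The FPKM ratio of KEAP1 to NFE2L2, which does not depend on the scaling of a library, was 0.304, 0.247 and 0.271 in mock and 0.307, 0.285 and 0.262 in shHMGB2. These ranges overlapped (exact permutation p = 0.7, 2-sided, with 0.1 the smallest p that 3 against 3 allow; 0.7 after adjustment over the 2 ratios tested, both chosen after the values were seen).

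GCLC and GCLM are the catalytic and the modifier subunit of glutamate-cysteine ligase, which makes the first and rate-limiting bond of glutathione. GCLC (chromosome 6, 53497341 to 53545101) had 40.04, 51.1 and 45.9 FPKM in mock and 41.5, 42.2 and 47.5 in shHMGB2. GCLM (chromosome 1, 93885199 to 93909430) had 30.2, 32.5 and 35.5 FPKM in mock and 28.4, 31.4 and 28.5 in shHMGB2. For both subunits the groups overlapped, and the highest library was a mock library. Their log2 fold changes were -0.06 (95% interval -0.29 to 0.17, limma adjusted p = 0.726) for GCLC and -0.15 (-0.32 to 0.03, limma adjusted p = 0.257) for GCLM. GCLC was 0.02 with mock replicate 2 left out. The ratio of GCLM to GCLC FPKM was 0.753, 0.635 and 0.773 in mock and 0.683, 0.746 and 0.601 in shHMGB2 (exact permutation p = 0.5, 0.7 after adjustment over the 2 ratios), so the subunit balance overlapped too.

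TXNRD1, thioredoxin reductase, passes electrons from NADPH to thioredoxin, and SRXN1, sulfiredoxin, revives over-oxidised peroxiredoxins. TXNRD1 (chromosome 12, 104215779 to 104350307) had 157.7, 208.3 and 181.0 FPKM in mock and 183.6, 179.5 and 199.9 in shHMGB2. The mock libraries alone spanned more than all shHMGB2 libraries, and the log2 fold change was 0.05 (95% interval -0.19 to 0.29, limma adjusted p = 0.782). Its sign turned under 2 other scalings, with library weights and without mock replicate 1. SRXN1 (chromosome 20, 646615 to 653200) had 56.6, 63.1 and 55.8 FPKM in mock and 51.1, 48.5 and 58.9 in shHMGB2. Only shHMGB2 replicate 3 reached into the mock range, and the log2 fold change was -0.15 (95% interval -0.35 to 0.06, limma adjusted p = 0.307; 0.0402 with library weights).

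NQO1 and AKR1C1 are detoxification enzymes, a quinone reductase and an aldo-keto reductase that acts on steroids and carbonyls. NQO1 (chromosome 16, 69709401 to 69726560), the textbook marker of NRF2 activity, had 179.6, 172.0 and 153.8 FPKM in mock and 176.3, 170.1 and 186.2 in shHMGB2. The groups overlapped, and the log2 fold change was 0.08 (95% interval -0.09 to 0.25, limma adjusted p = 0.520). AKR1C1 (chromosome 10, 4963415 to 4983283) had 42.2, 45.6 and 41.6 FPKM in mock and 36.5, 35.3 and 45.6 in shHMGB2. As for SRXN1, shHMGB2 replicates 1 and 2 lay below mock and replicate 3 did not. The log2 fold change was -0.15 (95% interval -0.38 to 0.09, limma adjusted p = 0.375). AKR1C1 has closely related copies whose reads the authors' counting could split, so its value is uncertain. AKR1C2 had 41.0 ± 4.71 and 40.1 ± 5.75 FPKM and AKR1C3 2.18 ± 0.844 and 1.84 ± 0.321 (SD, n = 3 each). With the 3 summed, an alternative chosen after seeing the data, the log2 fold change was -0.10 (limma adjusted p = 0.596).

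ABCC3 and HMOX1 were the 2 genes of low level and the 2 with the largest differences, in opposite directions. ABCC3 (chromosome 17, 50634881 to 50692253) encodes MRP3, a pump for conjugated organic anions. It had 1.81, 1.79 and 1.94 FPKM in mock and 1.23, 1.13 and 1.29 FPKM in shHMGB2. All shHMGB2 libraries were below all mock libraries, the mean FPKM differed by -34.1%, and spread within a group was 0.081 FPKM (SD, n = 3) in each. The log2 fold change on the log2(FPKM + 1) scale, which understates changes at such levels, was -0.36 (95% interval -0.56 to -0.16, limma adjusted p = 0.0503), just outside the threshold. It passed under upper-quartile, median-of-ratios and quantile scaling (limma adjusted p = 0.0404, 0.0367 and 0.0278), without the variance trend (0.0225) and with library weights (0.00836). It did not pass with any library left out (0.0753 to 0.166), without the filter on low values (0.103) or with a block on replicate number (0.117). With 0.5 or 0.1 added in place of 1 the log2 fold change was larger, at -0.45 and -0.57. It did not pass there either (limma adjusted p = 0.0534 and 0.0592). The authors' deposited table gave ABCC3 normalized levels of 205 in mock and 115 in shHMGB2, a log2 fold change of -0.83 and an adjusted p of 0.000567, without marking it as changed.

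HMOX1 (chromosome 22, 35381096 to 35394207) encodes haem oxygenase 1, which splits haem and is also induced by signals other than NRF2. It had 2.69, 2.24 and 2.27 FPKM in mock and 3.32, 2.72 and 3.79 in shHMGB2. Here the lowest shHMGB2 library, replicate 2, exceeded the highest mock library, replicate 1, by little. The mean was 36.5% higher and the log2 fold change 0.33 (95% interval 0.06 to 0.59), which did not pass (limma adjusted p = 0.121; 0.0239 with library weights). In the authors' deposited table its normalized levels were 73.2 and 94.4, the lowest of the 10 genes, with an adjusted p of 0.366. For the other 8 genes the authors' deposited log2 fold changes ran from -0.22 for AKR1C1 to 0.09 for KEAP1, and the lowest adjusted p was 0.109, for SRXN1.

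**Figure D2:**
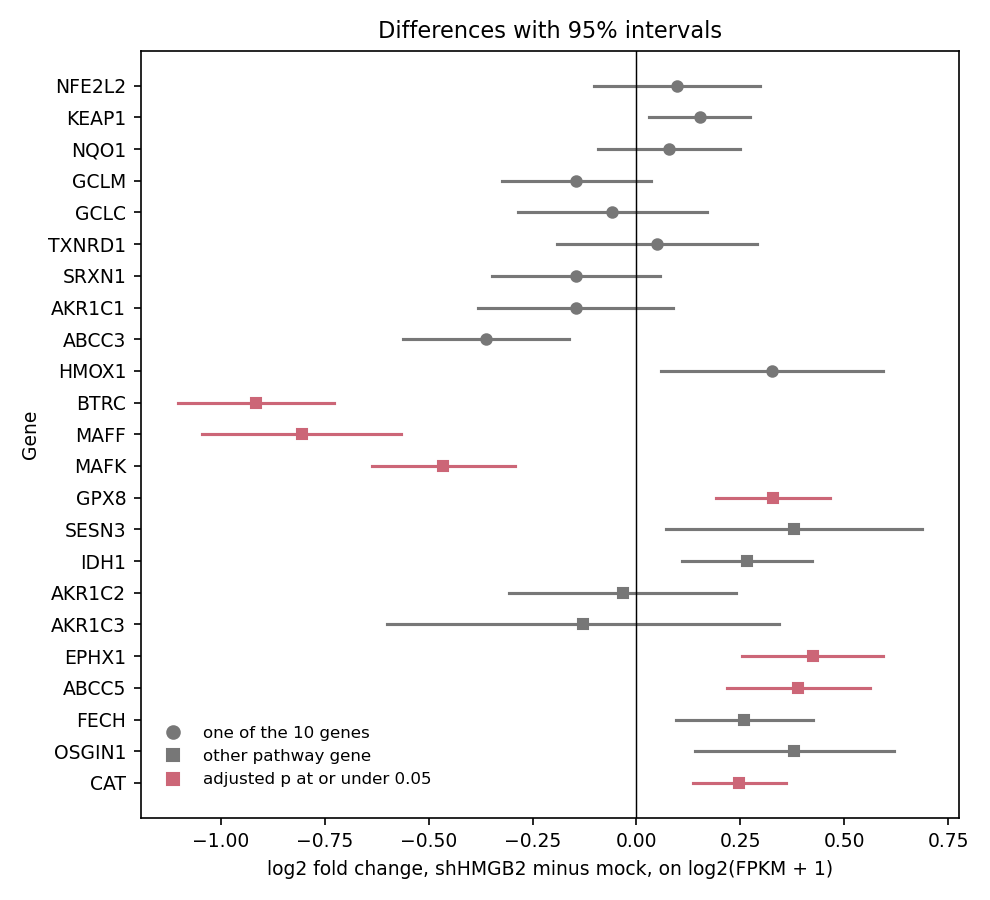
Log2 fold change of shHMGB2 minus mock on log2(FPKM + 1), with 95% limma intervals (n = 3 each), for the 10 genes (circles) and other named pathway genes (squares); red marks an adjusted p of at most 0.05. No circle is red, ABCC3 at -0.36 is the lowest circle, and BTRC at -0.92 and MAFF at -0.81 lie farthest from 0.

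For several targets the libraries of 1 group differed by more than the group means did. In shHMGB2 replicate 3, 8 of the 10 genes had their highest value of that group, the exceptions being KEAP1 and GCLM. Over all genes tested that library was the highest of its group for 29.8%, and over 97 other pathway genes for 41.2%. Mock replicate 2 was the highest mock library for 5 of the 10 genes (NFE2L2, GCLC, TXNRD1, SRXN1 and AKR1C1), against 27.2% of all genes and 22.7% of the pathway genes. The summed level of the 10 genes was 653, 742 and 666 FPKM in mock and 679, 673 and 744 FPKM in shHMGB2, so mock replicate 2 and shHMGB2 replicate 3 stood nearly level at the top.

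**Figure D3:**
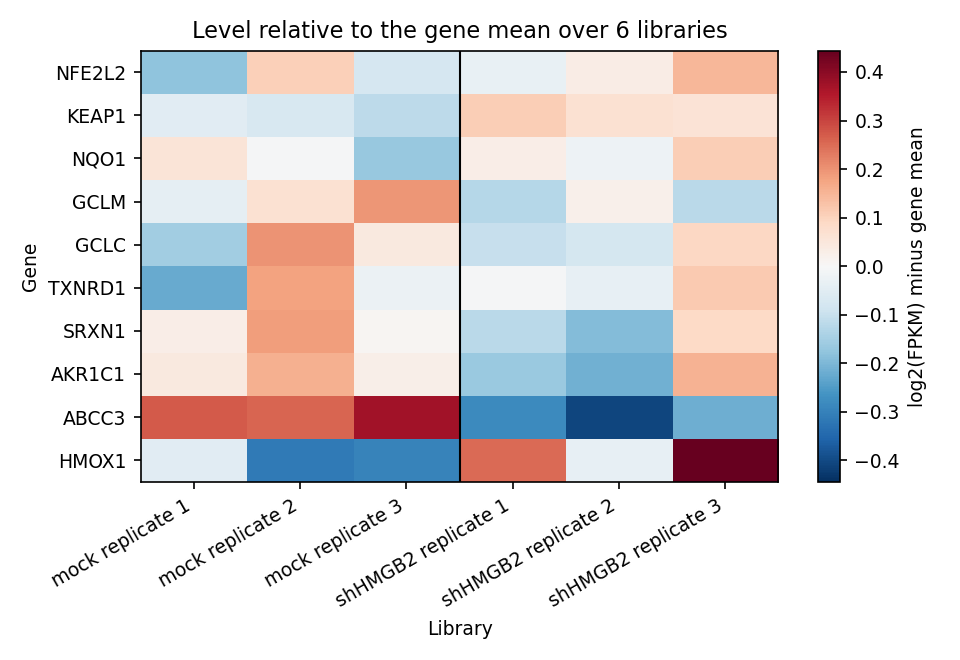
Log2(FPKM) of each gene minus its mean over the 6 libraries (colour), by library; the line parts mock from shHMGB2. Mock replicate 2 and shHMGB2 replicate 3 are high for NFE2L2, GCLC, TXNRD1, SRXN1 and AKR1C1, while ABCC3 is high in every mock library and low in every shHMGB2 library.

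Across the 6 libraries some members followed each other and others ran opposite. Pearson's r of log2(FPKM + 1) was 0.97 between SRXN1 and AKR1C1 and 0.91 between NFE2L2 and TXNRD1. It was positive for 29 of the 45 pairs. The lowest was KEAP1 with ABCC3 at -0.96, and NQO1 with GCLM stood at -0.91 and GCLM with HMOX1 at -0.88. With 6 points that share library, scaling and group, these values are descriptions only. Of 9311 other genes averaging at least 5 FPKM, those most like NFE2L2 were NRBF2 (r = 0.98), CDC42EP3 (0.98) and the row VPS11-2 (0.98), which carries a copy number in its name. NRBF2, an autophagy factor, had 24.6, 32.9 and 26.8 FPKM in mock and 29.3, 29.4 and 34.1 in shHMGB2, with the same 2 libraries highest as for NFE2L2. It was picked by its likeness over these same libraries, so the shared order adds no further evidence.

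Among other listed pathway genes, 3 that control or partner NRF2 fell and 4 from other lists rose, together a share near that of all genes. Across 9 lists of other pathway genes 108 were named, 105 were in the table and 97 were tested. Of these, 4 rose and 3 fell, which is 7.22% against the 6.75% of all genes; 3.30% of all genes rose and 3.45% fell, or 442 and 463 genes. That split was 310 to 526 under upper-quartile and 309 to 635 under median-of-ratios scaling. In the pathway lists the falls stayed at 3 under each scaling, while the rises were 2 under upper-quartile, 3 under median-of-ratios and 7 under quantile scaling. The median log2 fold change of the 97 was 0.01, against 0.04 for all genes.

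All 3 falls were among the 15 tested genes of NRF2 control and partnership, of which 0 rose and 12 did not pass (median -0.03). BTRC, a ubiquitin ligase subunit that can mark NRF2 for degradation apart from KEAP1, had 4.05, 4.32 and 4.45 FPKM in mock and 1.84, 1.90 and 1.65 in shHMGB2. It fell by 0.92 on the log2(FPKM + 1) scale (SE 0.080, limma adjusted p = 0.00154). MAFF, a small MAF partner, had 9.62, 10.4 and 7.96 FPKM in mock and 4.70, 4.70 and 5.27 in shHMGB2, and fell by 0.81 (SE 0.10, limma adjusted p = 0.00575). MAFK, another small MAF, had 16.1, 17.6 and 15.4 FPKM in mock and 12, 10.8 and 11.9 in shHMGB2, and fell by 0.46 (SE 0.074, limma adjusted p = 0.0142). In each of the 3 all mock libraries lay above all shHMGB2 libraries, as in 14.0% of all genes tested. The 3 were picked by these same values, so this adds no further evidence. BTRC and MAFF passed with any single library left out. For MAFK the limma adjusted p was 0.0595 with mock replicate 2 left out, and 0.0629 and 0.0504 with shHMGB2 replicates 2 and 3 left out.

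The 4 rises were spread over 4 lists and each is given as mean and SD of 3 libraries. GPX8, a peroxidase of the endoplasmic reticulum, was the 1 of 21 glutathione genes that passed, with 11.9 ± 0.420 FPKM in mock against 15.2 ± 0.385 FPKM (limma adjusted p = 0.0207). EPHX1, the microsomal epoxide hydrolase, was the 1 of 15 detoxification enzymes that passed, with 25.7 ± 2.08 FPKM in mock against 34.8 ± 1.46 FPKM (limma adjusted p = 0.0177). ABCC5, an efflux pump related to ABCC3, was the 1 of 6 other transporters, with 8.69 ± 0.723 FPKM in mock against 11.7 ± 0.372 FPKM (limma adjusted p = 0.0256). CAT, catalase, was the 1 of 3 genes of superoxide and peroxide removal, with 46.7 ± 0.240 FPKM in mock against 55.6 ± 0.722 FPKM (limma adjusted p = 0.0284). None of these 4 calls held without mock replicate 2 or without any one of the shHMGB2 libraries (limma adjusted p from 0.0536 to 0.123), and without mock replicate 3, GPX8 lay just above the threshold and CAT at 0.0553. With upper-quartile scaling EPHX1 (limma adjusted p = 0.0541) and CAT (0.0895) did not pass, nor did CAT with median-of-ratios scaling (0.0694). Without the filter on low values EPHX1 (0.0510) and ABCC5 (0.0653) did not pass.

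**Figure D4:**
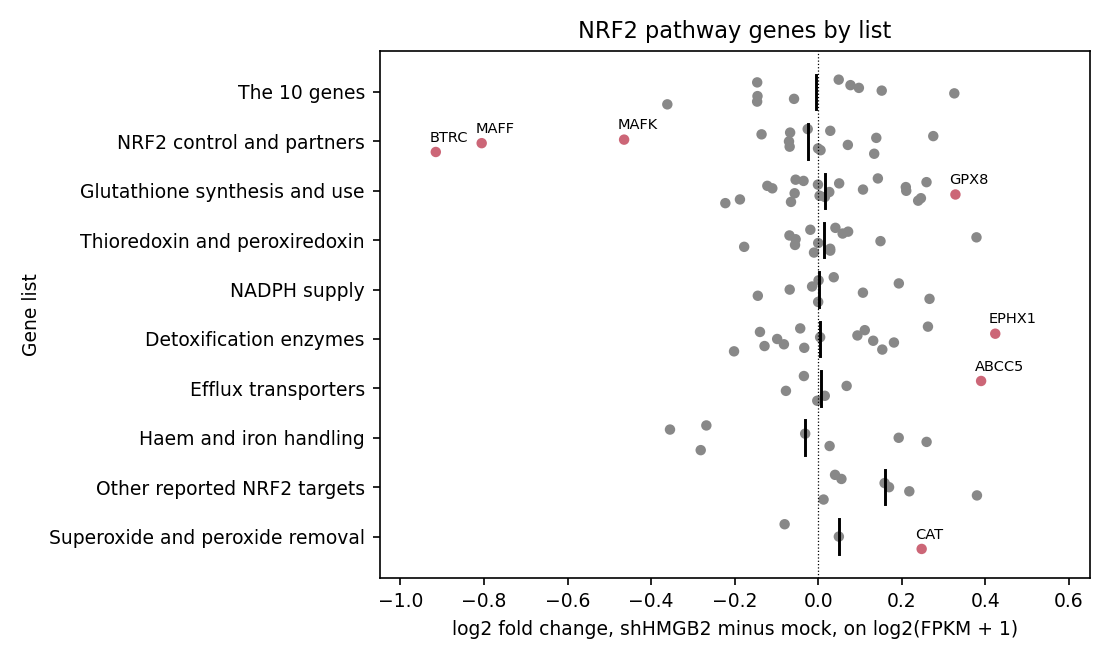
Log2 fold change of shHMGB2 minus mock on log2(FPKM + 1) for each tested gene of the 10 and of 9 pathway lists (rows); points are genes, black bars list medians, and red marks an adjusted p of at most 0.05. List medians lie between -0.03 and 0.16, and the 3 red points on the left are BTRC, MAFF and MAFK.

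In the other lists 0 genes passed in limma: 14 of thioredoxin and peroxiredoxin, 9 of NADPH supply, 7 of haem and iron handling and 7 other reported NRF2 targets. At an unadjusted p under 0.05 they held 2, 2, 3 and 2 genes, against 27.9% of all genes tested. Of those genes PRDX4 (log2 fold change -0.18), BLVRA (-0.28) and SLC48A1 (-0.27) were lower in shHMGB2. The others, SESN3, IDH1, RPIA, FECH, OSGIN1 and PIR, were higher. The gene of smallest p within its own list was, in the order of these lists, SESN3, a sestrin, with 21.7 ± 4.26 and 28.2 ± 1.47 FPKM (limma adjusted p = 0.119), and IDH1, an NADPH-making dehydrogenase, with 92.8 ± 5.55 and 112 ± 5.98 FPKM (limma adjusted p = 0.0586). For the last 2 lists it was FECH, which inserts iron into haem, with 3.73 ± 0.174 and 4.66 ± 0.105 FPKM (limma adjusted p = 0.0698), and OSGIN1, an oxidative stress-induced growth inhibitor, with 8.68 ± 0.739 and 11.6 ± 1.45 FPKM (limma adjusted p = 0.0690; SD, n = 3 each). The 7 other reported NRF2 targets had a median log2 fold change of 0.16. The lowest, named after its values were seen, was the nuclear receptor NR0B1 at 0.01 (95% interval -0.16 to 0.18), and the authors' deposited table gave it -0.05. SESN3 passed without mock replicate 3 (limma adjusted p = 0.0498). By the authors' deposited table, 15 pathway genes had an adjusted p of at most 0.05, 6 higher and 9 lower, among the 97 with an adjusted p. Of all 13585 rows with one, 15.4% did, 833 higher and 1254 lower, so the pathway share was near the background. From the lists where 0 genes passed in limma, the 15 included SESN3 (0.0297) and IDH1 (0.0481), both higher. PRDX4 (0.0449), ME1 (0.0467) and HMOX2 (0.0246) from those lists were lower. From lists with a rise in limma, GPX1 (0.0430), AKR1B1 (0.00977) and SOD2 (0.0365) were lower in the deposited table and did not pass in limma.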

How the data were processed

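RNA-seq covered 3 mock and 3 shHMGB2 libraries of KYSE450. The submitters' processing notes list Bowtie2 2.2.5, RSEM 1.2.12 and build hg38, with no role for any. The authors deposited FPKM per library. Their deposited levels per group are a normalized signal. No source used here names the test behind the deposited log2 fold change and p-value. Read counts per library were not used here, so no counting interval is given.

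Genes averaging 1 FPKM or more (13409) were kept, and log2(FPKM + 1) was modelled by group in limma 3.58.1 under R 4.3.3 (empirical Bayes with a variance trend, Benjamini-Hochberg over all genes tested, 2-sided, threshold 0.05), and the fit was tested on simulated data. The members, lists and tests were chosen with earlier results of these data known. Besides all 10 members and HMGB2, genes were named by a rule: up to 3 passing genes per list, or the gene of smallest p; AKR1C2 and AKR1C3; and the 3 genes most like NFE2L2. Alternatives covered pseudocount, filter, scaling, variance model, library weights, a block on replicate number, and leaving out single libraries. Promoter windows and positions are from RefSeq on GRCh38.p14, matched by symbol.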

Additional observations from a re-analysis of the deposited data

How the results depend on the processing

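Without a low-value filter, 412 genes were called in place of 905, with a replicate block 372, with library weights 4194, and with 1 library left out 290 to 873. Members called were 1 (ABCC3) under upper-quartile, median-of-ratios and quantile scaling, without the variance trend and in the authors' deposited table, 4 with library weights (KEAP1, SRXN1, ABCC3 and HMOX1), and 0 under every other alternative run. Pathway genes called were 7, with 31 under library weights and 3 with a replicate block (1 higher and 2 lower). The count was 15 in the authors' deposited table, where 15.4% of all rows with an adjusted p passed. With 1 library left out it was 2 to 7. The weights ran from 0.246 for mock replicate 1 to 6.04 for mock replicate 2, so that fit leans on 1 mock library. The sign turned for NFE2L2 with library weights (-0.0207) and for TXNRD1 under upper-quartile scaling (-0.00449), median-of-ratios scaling (-0.00976) and library weights (-0.12). With 1 library left out the log2 fold change ran from -0.147 to 0.0248 for GCLC, -0.0505 to 0.149 for TXNRD1, -0.146 to 0.056 for AKR1C2 and -0.359 to 0.0382 for AKR1C3. The causes were not tested. The sample titles do not say whether same-numbered libraries were prepared together. Their deviations from the group mean correlated at -0.01, -0.04 and -0.10, which cannot settle that. No block was used in the main test. ABCC3 and HMOX1 had no value at a mean of at least 5 FPKM. The low levels of ABCC3 and HMOX1 and 3 libraries per group limit what could be detected, and an adjusted p above the threshold does not show equal levels.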
